A study of Homo sapiens with 8 samples.

Results

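The genes described here carry copper and the platinum drug cisplatin (CDDP) into, through and out of cells. They are the 9 genes SLC31A1, SLC31A2, ATOX1, CCS, ATP7A, ATP7B, SLC22A2, SLC22A3 and SLC47A1, chosen by name, and they hold 16 of the 58201 gene probes and 9 of the 43317 gene names on the array. SAS cells, an established line from a human squamous cell carcinoma of the tongue, were transfected with a negative control (NC) or with the mimic of one of 3 miRNAs (miR-874-3p, miR-629-3p or miR-210-3p), at 25 nM by the study's methods. Total RNA, 100 ng of each sample, was read on 1-colour whole-genome expression arrays, with 2 arrays in each of the 4 groups. The labels place extraction 48 h after transfection and the methods give a shorter interval. The methods describe the transfected cells as SAS cells carrying green fluorescent protein, and the labels list puromycin in the medium of every group. No label or methods text gives cisplatin to the cells on these arrays, so every value below is a level in cells without the drug.

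Copper reaches the cytosol mainly through SLC31A1 (CTR1), a small membrane protein that forms a trimeric pore, and its relative SLC31A2 (CTR2) sits largely on internal membranes. In the cytosol the chaperone ATOX1 hands copper to the pumps ATP7A and ATP7B, which load copper enzymes in the secretory pathway and move to the cell surface or to vesicles when copper is high, and the chaperone CCS hands it to the superoxide dismutase SOD1. Cisplatin is known to use parts of the same route: CTR1 has been linked to its uptake, CTR2 and the 2 ATPases to lower accumulation, and ATOX1 binds it. The organic cation carrier SLC22A2 (OCT2) and the exporter SLC47A1 (MATE1) are best known for handling it in the kidney, and SLC22A3 (OCT3) is a relative of SLC22A2.

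The mature sequences of the 3 transfected miRNAs are shown because the groups differ by them and nothing else in the labels. They are from RefSeq (GRCh38.p14), 5′ to 3′, with the seed (bases 2 to 8) in capitals. MiR-629-3p lies at chr15:70079387-70079408, miR-210-3p at chr11:568112-568133 and miR-874-3p at chr5:137647582-137647603, each on the minus strand.
miR-629-3p: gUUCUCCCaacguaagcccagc
miR-210-3p: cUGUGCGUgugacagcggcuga
miR-874-3p: cUGCCCUGgcccgagggaccga
No 2 of them share a seed. The letters complementary to the seed of miR-629-3p are GGGAGAA, which 0.747% of all 58201 probe sequences held. For miR-210-3p they are ACGCACA, in 0.131% of probe sequences, and for miR-874-3p they are CAGGGCA, in 0.387%. None of these occurred in the listed sequences of the 16 probes of the transport genes. At these rates 16 probes would seldom hold any. Probes cover only part of a transcript, so the search cannot say whether the genes hold such sites elsewhere.

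Levels are given as log2 signal relative to the 75th percentile of the array's gene probes, so that 0 is the level of that percentile. They are compared between groups for 1 probe and never between probes. On each array 42.2% to 49.8% of probes were well above background by the scanner's test, and no spot was saturated. The 8 arrays shared 1 slide and 1 scan, with miR-210-3p and miR-629-3p in the first row of the slide and NC and miR-874-3p in the second. A difference of miR-629-3p or miR-210-3p from NC therefore cannot be told apart from a difference between slide rows, while miR-629-3p against miR-210-3p, and miR-874-3p against NC, lie within a row. Within each row the groups held separate columns, 1 and 2 for miR-629-3p and miR-874-3p, 3 and 4 for miR-210-3p and NC. The comparisons within a row thus cannot be told apart from a difference between slide columns. By the methods the mimics came from Dharmacon and the negative control from Applied Biosystems. A difference of any mimic from NC thus also cannot be told apart from a difference between makers. Nothing in the labels says that the 2 arrays of a group came from separate cultures, so p-values measure only the spread between these arrays. As a check of labels, ISCU, a reported target of miR-210-3p, was at 4.87 and 4.93 on the miR-210-3p arrays and between 6.04 and 6.17 on the other 6. All 7 squamous epithelial markers listed (KRT5, KRT14, KRT6A, KRT17, TP63, CDH1 and EPCAM) were well above background on all 8 arrays. Of 8 markers of fibroblasts, endothelium and leukocytes, COL1A2, DCN and LUM were on no array, CDH5 and PTPRC on all 8, COL1A1 on 6, CD3E on 4 and PECAM1 on 2.

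Of the 9 genes, 6 had a probe that both arrays of some group read well above background, and were tested among 21283 such genes: SLC31A1, SLC31A2, ATOX1, CCS, ATP7A and ATP7B. Each was represented by its brightest probe, and those 6 probes were well above background on all 8 arrays. The plot of levels by array shows all of them.

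**Figure D1:**
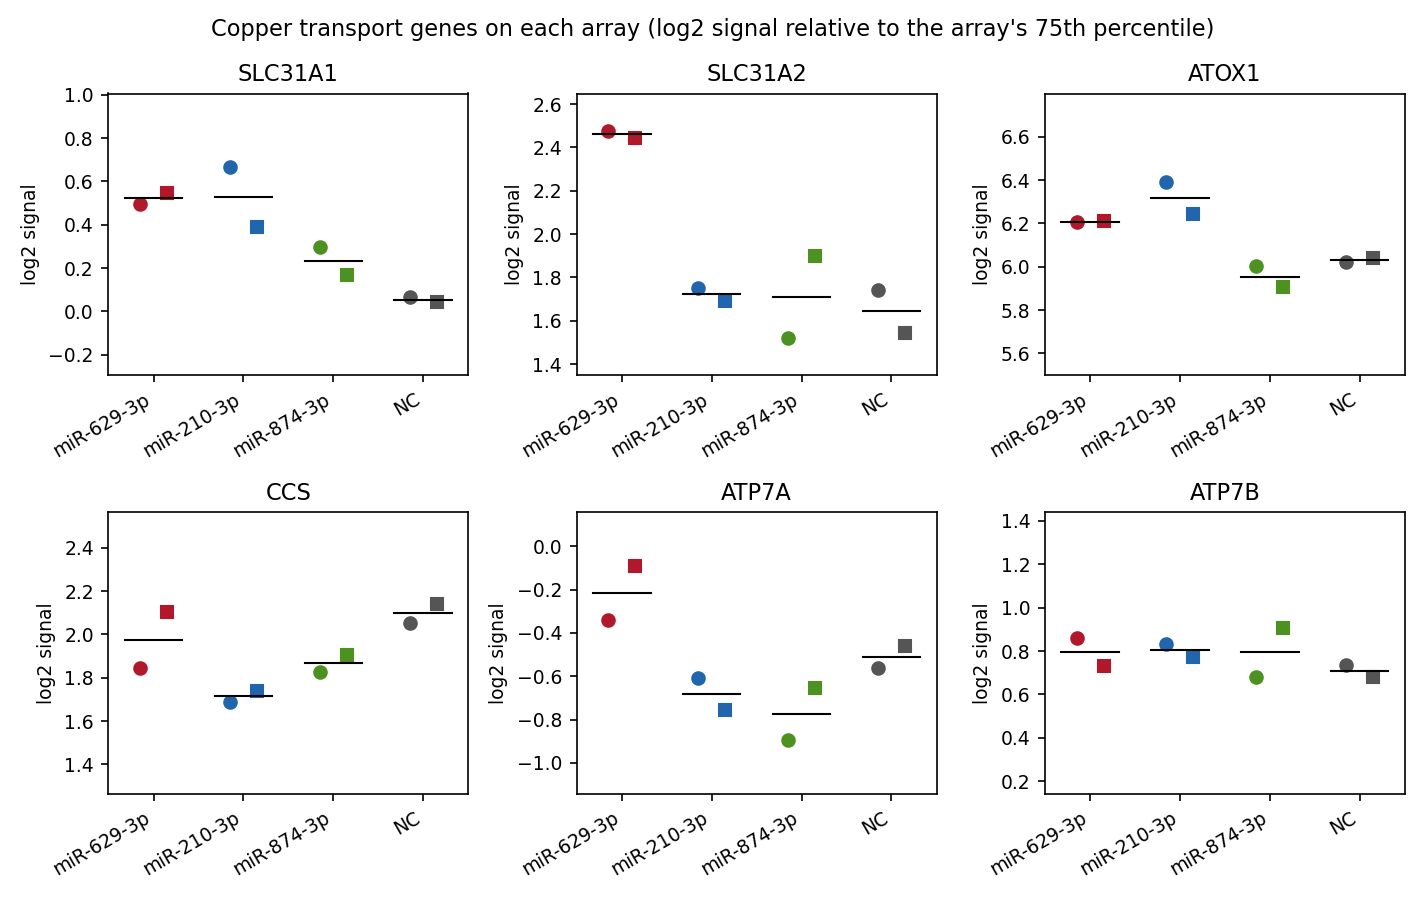
Log2 signal relative to the array's 75th percentile (y axis) of the probe used for each of 6 copper transport genes, by group (x axis). Circles are replicate 1, squares replicate 2 and lines the mean of 2 arrays, and every panel spans the same range in log2. Both miR-629-3p arrays lie above all other arrays for SLC31A2 (2.44 and 2.48 against 1.90 or less) and for ATP7A, and both NC arrays are the lowest for SLC31A1.

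The CTR genes were the members that rose with miR-629-3p. SLC31A2, measured by a probe at chr9:115926240-115926299 (hg19), read 2.48 and 2.44 with miR-629-3p. Its levels were 1.74 and 1.54 in NC, 1.52 and 1.90 with miR-874-3p, and 1.75 and 1.69 with miR-210-3p. The miR-629-3p arrays stood apart from all 6 others, whose groups overlapped each other. SLC31A2 was 1.76-fold higher with miR-629-3p than in NC (log2 fold change 0.82, SE 0.14, 95% confidence interval 0.47 to 1.17, limma with Benjamini-Hochberg adjustment over 21283 genes, adjusted p = 0.019). Within the first slide row it was 1.67-fold higher with miR-629-3p than with miR-210-3p (log2 0.74, SE 0.14, limma adjusted p = 0.0199). Against miR-874-3p it was 1.68-fold higher (log2 0.75, SE 0.14, limma adjusted p = 0.0235). It was the only gene of the 6 called by the F test over the 4 groups (limma adjusted p = 0.0275), a test that called 25.2% of all genes. In order of level NC was lowest, then came miR-874-3p and miR-210-3p, and miR-629-3p was highest, and of these steps only the last exceeded the spread between arrays. The call against NC was lost without miR-629-3p replicate 1 (adjusted p = 0.106), without miR-629-3p replicate 2 (adjusted p = 0.0899) or without NC replicate 2 (adjusted p = 0.0881), with the difference between 0.72 and 0.83 in these limma fits. The call within the first row was lost without any 1 of the miR-629-3p or miR-210-3p arrays (limma adjusted p from 0.0889 to 0.103), and that against miR-874-3p without any 1 of those same 4 arrays (from 0.0557 to 0.115).

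SLC31A1, the high-affinity importer, was lowest in NC, at 0.06 and 0.04. The miR-874-3p arrays read 0.30 and 0.17, the miR-210-3p arrays 0.67 and 0.39, and the miR-629-3p arrays 0.50 and 0.55. The values of the 3 miRNA groups all lay above those of NC. With miR-629-3p SLC31A1 was 1.38-fold higher than in NC (log2 0.47, SE 0.11, 95% confidence interval 0.19 to 0.74, limma adjusted p = 0.0424). With miR-210-3p the difference was of like size (log2 0.48, SE 0.11, 95% confidence interval 0.20 to 0.75) and did not pass (limma adjusted p = 0.0659). Between miR-629-3p and miR-210-3p, within the first slide row, the difference was -0.01 (95% confidence interval -0.28 to 0.27, limma adjusted p = 0.967). With miR-874-3p, within the second row, it was 0.18 above NC (95% confidence interval -0.10 to 0.45, limma adjusted p = 0.476). The F test over the 4 groups gave a limma adjusted p of 0.0543. The call for miR-629-3p was lost when any 1 of the miR-629-3p or NC arrays was left out (limma adjusted p from 0.116 to 0.167). Its other probe, at chr9:116020983-116021042 (hg19) beside chr9:116026107-116026166 for the one used, was 0.34 higher with miR-210-3p (SE 0.11) and 0.39 higher with miR-629-3p (SE 0.11) in a limma fit of all kept probes, with adjusted p of 0.121 and 0.0634.

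Both CTR genes were thus called higher with miR-629-3p, 2 of 6 tested genes, where the same fit called 9.28% of all genes higher and 16.8% in either direction. A limma fit of only the 17406 genes detected on all 8 arrays, as these 6 were, called 23.2% in either direction. The share of probes well above background also moved with the groups, being 49.8% and 48.3% with miR-629-3p but 42.9% and 42.2% in NC, and its part in these differences was not tested. Of the 7 squamous markers KRT14, KRT17 and CDH1 were called lower with miR-629-3p. The summed signal of all 7 was 264 and 263 times the array's 75th percentile against 294 and 296.5 in NC. That of the 8 markers of other cells was 1.21 and 1.08 against 1.47 and 0.941. The part of these in the result was not tested. In RNA from whole cultures, fewer cells that express a gene and less RNA per cell cannot be told apart. Neither gene reached the 2-fold change of the study's own rule (unadjusted p under 0.05 and at least 2-fold), which 5.26% of all genes met.

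**Figure D2:**
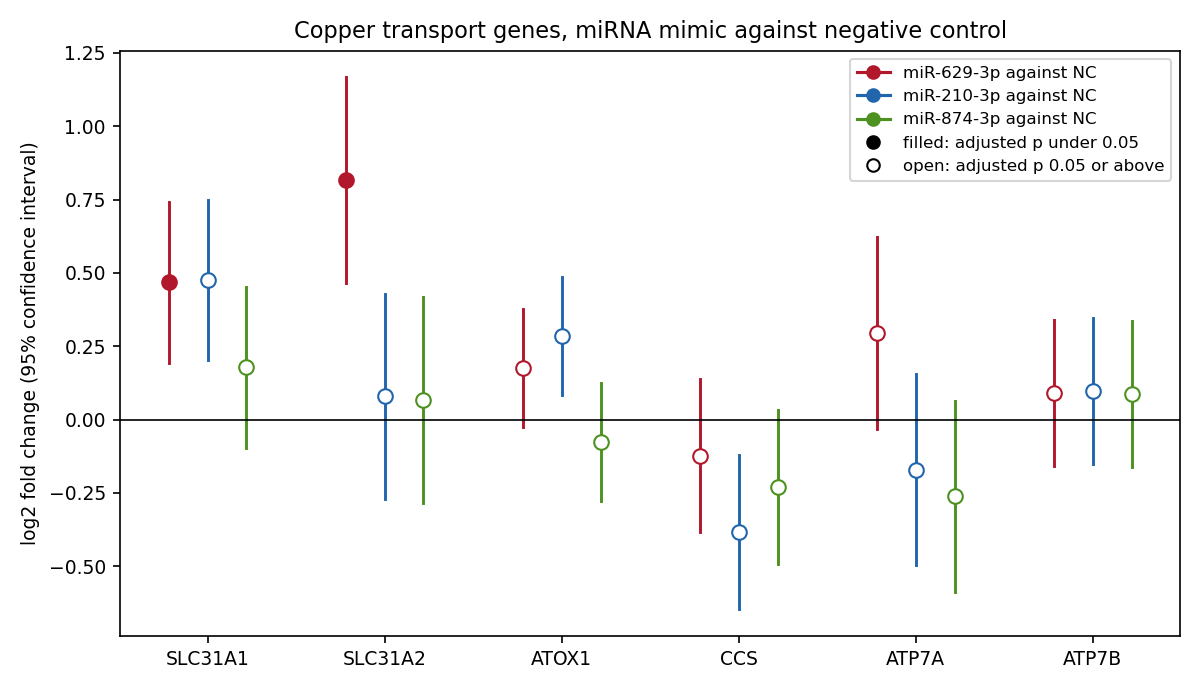
Log2 fold change against NC (y axis) of the 6 tested genes (x axis) for each miRNA, with 95% confidence intervals from limma. Filled points passed an adjusted p of 0.05: SLC31A2 (0.82) and SLC31A1 (0.47) with miR-629-3p, while the SLC31A1 point with miR-210-3p lies at 0.48 and is open.

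SLC31A2 and SLC31A1 are near neighbours on chromosome 9, with FKBP15, on the opposite strand, as the only protein-coding gene between them in the RefSeq table (GRCh38.p14). SLC31A2 and FKBP15 share 3135 bases, and 266 bases separate the end of FKBP15 from the start of SLC31A1, so SLC31A1 and FKBP15 start back to back. The neighbours were looked at after the values of the CTR genes were known. FKBP15 was 0.30 higher with miR-629-3p than in NC (SE 0.13, limma adjusted p = 0.166). CDC26, next after SLC31A1, differed by 0.26 (SE 0.07, limma adjusted p = 0.0635), and PRPF4 after it by -0.11 (SE 0.16, limma adjusted p = 0.667). On the other side ZFP37 was not tested and ZNF883, a zinc finger gene, fell by 0.67 on the log2 scale with miR-629-3p, with an adjusted p of 0.0247 in the limma fit (0.0574 to 0.12 without any 1 of the miR-210-3p, miR-629-3p or NC arrays, and -0.39 with normexp). The stretch was drawn around the 2 CTR genes, so their calls among its 6 tested genes cannot show that they stand apart. None of its other tested genes was called higher with miR-629-3p, where 9.28% of all genes were. The limma confidence intervals of FKBP15 (-0.02 to 0.62), CDC26 (0.08 to 0.44) and PRPF4 (-0.50 to 0.28) overlapped that of SLC31A1 (0.19 to 0.74). That of ZNF883 (-0.98 to -0.35) did not. With SLC31A2 (0.47 to 1.17) only that of FKBP15 overlapped among these neighbours. Overlap of intervals does not test whether genes read on the same arrays differ, and such differences were not tested.

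The 250 bases before the start of SLC31A1 (chr9:113221294-113221543, plus strand, GRCh38.p14, from RefSeq) are shown because it is the CTR gene called here that has an entry in the promoter table. Capitals mark GC boxes (GGGCGG, searched on both strands), the letters bound by Sp1-type factors.
SLC31A1: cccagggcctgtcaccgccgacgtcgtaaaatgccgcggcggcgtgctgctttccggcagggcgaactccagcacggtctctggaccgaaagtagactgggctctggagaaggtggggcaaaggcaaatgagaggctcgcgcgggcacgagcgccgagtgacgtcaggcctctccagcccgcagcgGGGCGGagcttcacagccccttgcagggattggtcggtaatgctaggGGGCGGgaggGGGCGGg
It holds 3 GC boxes, and 42.6% of 35116 windows of this length hold at least 1. Neither TGCACNC (9.87% of windows) nor TGCGCNC (16.8% of windows), the core letters of metal response elements, was found in it on either strand. Entries were found for 6 of the 9 genes, and SLC31A2, SLC22A3 and SLC47A1 are named only. ATP7B has 3 entries, 2 of them with 3 GC boxes each, ATOX1 and SLC22A2 have 1 box each, and the windows of ATP7A and CCS held none. TGCGCNC was found 2 times each in the windows of ATOX1 and CCS and in 1 window of ATP7B. TGCACNC was found 2 times in that of SLC22A2, and the window of ATP7A held neither.

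The chaperones ran in opposite directions with miR-210-3p, without passing the test. ATOX1, the chaperone for the copper ATPases, was at 6.39 and 6.24 with miR-210-3p and at 6.02 and 6.04 in NC. Its levels were 6.003 and 5.906 with miR-874-3p and 6.21 and 6.21 with miR-629-3p. Both arrays of the first slide row's groups thus lay above all 4 of the second row. The difference of miR-210-3p from NC was 0.29 (SE 0.08, 95% confidence interval 0.08 to 0.49, limma adjusted p = 0.0984) and that of miR-629-3p 0.18 (SE 0.08, limma adjusted p = 0.195). Only the widest step was called, miR-210-3p over miR-874-3p, at 1.29-fold (log2 0.36, SE 0.08, limma adjusted p = 0.0493), and it too lies across slide rows. That call was lost without any 1 of the 8 arrays (limma adjusted p from 0.0539 to 0.227).

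CCS, the chaperone for SOD1, was at 1.69 and 1.74 with miR-210-3p, below all other arrays. It was at 2.05 and 2.14 in NC, 1.84 and 2.11 with miR-629-3p and 1.83 and 1.90 with miR-874-3p. Its probe spans chr11:66373026-66373194 (hg19), a stretch longer than the probe itself. The difference of miR-210-3p from NC was -0.38 (SE 0.11, 95% confidence interval -0.65 to -0.12, limma adjusted p = 0.093). The difference of miR-874-3p, within a row, was -0.23 (SE 0.11, limma adjusted p = 0.352), and that of miR-629-3p -0.12 (SE 0.11, limma adjusted p = 0.462).

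The export pumps did not pass the test in any comparison with NC. ATP7A, the pump mutated in Menkes disease, read -0.56 and -0.46 in NC by its brightest probe (chrX:77227198-77227257, hg19). It read -0.89 and -0.65 with miR-874-3p and -0.61 and -0.76 with miR-210-3p. With miR-629-3p it read -0.34 and -0.09. The miR-629-3p arrays were the highest, and no 2 of these groups overlapped except miR-210-3p and miR-874-3p. ATP7A was 1.47-fold higher with miR-629-3p than with miR-874-3p (log2 0.56, SE 0.13, limma adjusted p = 0.0426), a comparison that lies across slide rows. Against miR-210-3p, within the first row, it was 0.47 higher (SE 0.13, 95% confidence interval 0.14 to 0.79, limma adjusted p = 0.0556), and against NC 0.30 higher (SE 0.13, limma adjusted p = 0.181). Its difference from NC was -0.26 with miR-874-3p (limma adjusted p = 0.389) and -0.17 with miR-210-3p (limma adjusted p = 0.461). The call over miR-874-3p remained only without miR-874-3p replicate 2 (limma adjusted p = 0.0382), and without any 1 of the other 7 arrays the adjusted p ran from 0.0692 to 0.179. With normexp background correction the difference was 0.22 (limma adjusted p = 0.0564).

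Of the 5 probes of ATP7A, the 4 that were kept did not give the same difference. With miR-629-3p against NC they gave 0.30 (the brightest), 0.27 (chrX:77302448-77302507), -1.71 (chrX:77302314-77302373) and -0.06 (chrX:77305601-77305657, all hg19). The fourth was dim, between -3.09 and -1.90 over the arrays, where the dimmest probe detected on the NC arrays lay at -2.84 and -2.82. The fifth was well above background on no array. The third value rests on 1 array: that probe was at 2.52 on NC replicate 1 and at -1.55 on NC replicate 2, and between -2.47 and -1.19 on the 6 miRNA arrays, so its SE was 1.22. In the limma fit of all kept probes none of the 4 was called in these comparisons with NC. For miR-629-3p against miR-874-3p that fit called the brightest (0.56, limma adjusted p = 0.0459). The others gave 0.33, 0.91 and 0.70, in the order above, and were not called (limma adjusted p of 0.242, 0.655 and 0.147).

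**Figure D3:**
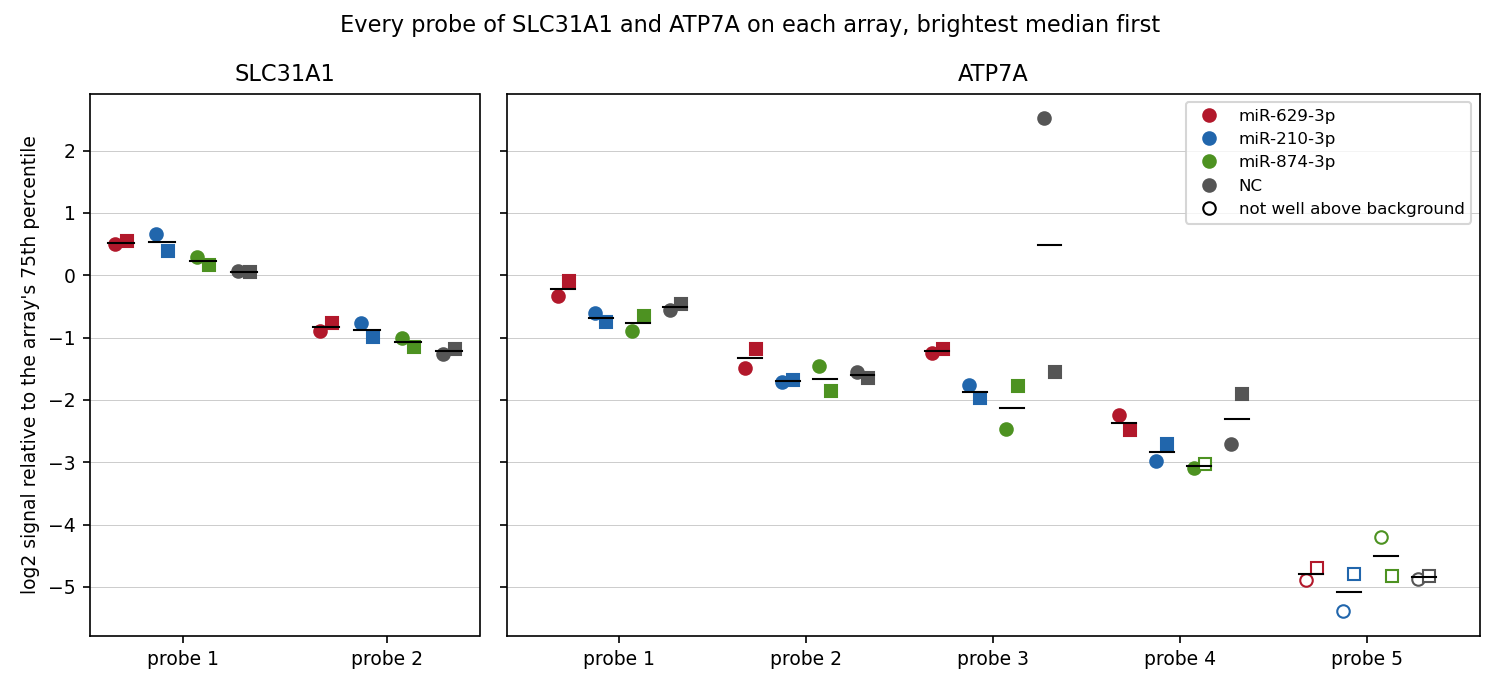
Log2 signal relative to the array's 75th percentile (y axis) for every probe of SLC31A1 (left) and ATP7A (right), ordered by median. Circles are replicate 1, squares replicate 2, lines the mean of 2 arrays, and open symbols are not well above background. Both SLC31A1 probes run in the same order of groups from miR-629-3p or miR-210-3p down to NC, and 1 NC array stands at 2.52 on the third ATP7A probe.

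ATP7B, the pump mutated in Wilson disease, was the flattest of the 6. Its 8 values lay between 0.68 and 0.90, and its differences from NC were 0.09 with miR-874-3p (95% confidence interval -0.16 to 0.34), 0.10 with miR-210-3p (-0.15 to 0.35) and 0.09 with miR-629-3p (-0.16 to 0.34). In that order the limma adjusted p were 0.717, 0.592 and 0.581. By the spread between these arrays, the intervals exclude a difference of 1.5-fold from NC in either direction and leave room for smaller ones. They do not cover differences between slide rows or between makers, so they do not bound the effect of a mimic.

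The organic cation carriers and the exporter SLC47A1 were at or under the limit of the array. SLC22A2 (2 probes) and SLC22A3 (1 probe) were well above background on none of the 8 arrays, at -6.07 to -4.04 and -5.84 to -4.96, where the dimmest probe well above background lay between -3.74 and -2.82 by array. Each of the 2 probes of SLC47A1 was above background on 1 array. One was at -3.08 on miR-210-3p replicate 1 and -5.15 on replicate 2. The other was at -0.66 on NC replicate 2 and -5.07 on NC replicate 1. No group had both arrays above background for any of these 3 genes, so no fold is given for them.

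Over the 6 tested genes, miR-629-3p gave 4 whose values did not overlap those of NC, all higher, where 65.5% of all genes did not overlap and 35% were higher. Their median difference was 0.24 beside 0.02 for all genes. With miR-210-3p none of the 6 was called by limma (6.05% of all genes were), 3 had an unadjusted p under 0.05 (SLC31A1, ATOX1 and CCS) where 26% of all genes had, and 5 did not overlap NC, 3 of them higher, where 61.5% of all genes did not overlap and 37.4% were higher. The median was 0.09 beside 0.05 for all genes. With miR-874-3p none was called (0.423% of all genes were), none had an unadjusted p under 0.05 (16.4% of all genes had), and 4 did not overlap NC, 1 of them higher, where 43.6% of all genes did not and 20.4% were higher. The median was -0.01 for the 6 and for all genes. None of the 6 met the rule of 2-fold with an unadjusted p under 0.05 in these comparisons, which 2.02% of all genes met with miR-874-3p and 3.14% with miR-210-3p. The 3 comparisons share the NC arrays. Among pairs of miRNA groups, 1 of the 6 was called between miR-629-3p and miR-210-3p (22.6% of all genes), 2 between miR-629-3p and miR-874-3p (16.2%) and 1 between miR-210-3p and miR-874-3p (9.8%), each named above. With miR-210-3p, 3 of the 7 squamous markers (KRT5, KRT14 and KRT17) were called lower and none higher, the rest running from -0.62 (KRT6A) to 0.39 (EPCAM, limma adjusted p = 0.052). None of the 4 tested markers of other cells was called, and their differences ran from -1.58 for the endothelial PECAM1 (limma adjusted p = 0.0649) to 2.90 for the fibroblast COL1A1 (limma adjusted p = 0.0606). The part of these in the values of ATOX1 and CCS was not tested.

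The 2 genes whose levels over the 8 arrays were most like those of SLC31A2, among 17401 genes well above background on all 8, were PGPEP1, a pyroglutamyl peptidase (Pearson r = 0.997), and VEGFC, a lymphatic growth factor (r = 0.994). These correlations describe 8 arrays of 4 groups that share a slide.

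Other genes of copper handling and platinum transport were read from 4 lists of 52 genes, 46 of which could be tested. With miR-874-3p none of the 46 was called, beside 0.423% of all genes, and 10 (21.7%) had an unadjusted p under 0.05, beside 16.4% of all genes. With miR-210-3p 1 was called higher and 2 lower, 6.52% of the 46 beside 6.05% of all genes. With miR-629-3p 6 were called higher and 3 lower, 19.6% of the 46 beside 16.8% of all genes, so that all of these called shares lay near those of all genes. Among 11 tested carriers and channels that platinum drugs can use, 3 rose with miR-629-3p and none fell, where 9.28% of all genes were called higher and 7.47% lower, and their median difference was 0.29 beside 0.02 for all genes. LRRC8A, the obligate subunit of the volume-regulated anion channel, was at 6.72 and 6.73 with miR-629-3p and between 5.66 and 5.91 on the other 6. It was 1.96-fold higher with miR-629-3p than in NC (log2 0.97, SE 0.09, limma adjusted p = 0.00571), and remained called without any 1 of the 8 arrays.

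ABCC2 (MRP2), an export pump for glutathione conjugates including those of platinum, was at -2.14 and -1.96 with miR-629-3p and not well above background on either NC array (-3.07 and -3.09). By the scanner's background subtraction it was at least 1.72-fold higher with miR-629-3p than in NC, counted from the dimmest probe that the NC arrays detected. The fitted log2 difference was 1.03 (limma adjusted p = 0.00626). With normexp background correction in place of the scanner's, the fitted difference was 0.20 (limma adjusted p = 0.0329). ABCC2 was at -2.60 and -2.75 with miR-874-3p and -3.05 and -3.22 with miR-210-3p, well above background on each of these arrays. The dimmest probe detected lay at -3.39 and -3.42 on the miR-210-3p arrays and at -2.84 and -2.82 on the NC arrays. The carnitine transporter SLC22A5 was the third (1.23-fold, limma adjusted p = 0.0477). With miR-210-3p the channel subunit LRRC8D fell by 0.53 on the log2 scale (SE 0.09, limma adjusted p = 0.031).

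**Figure D4:**
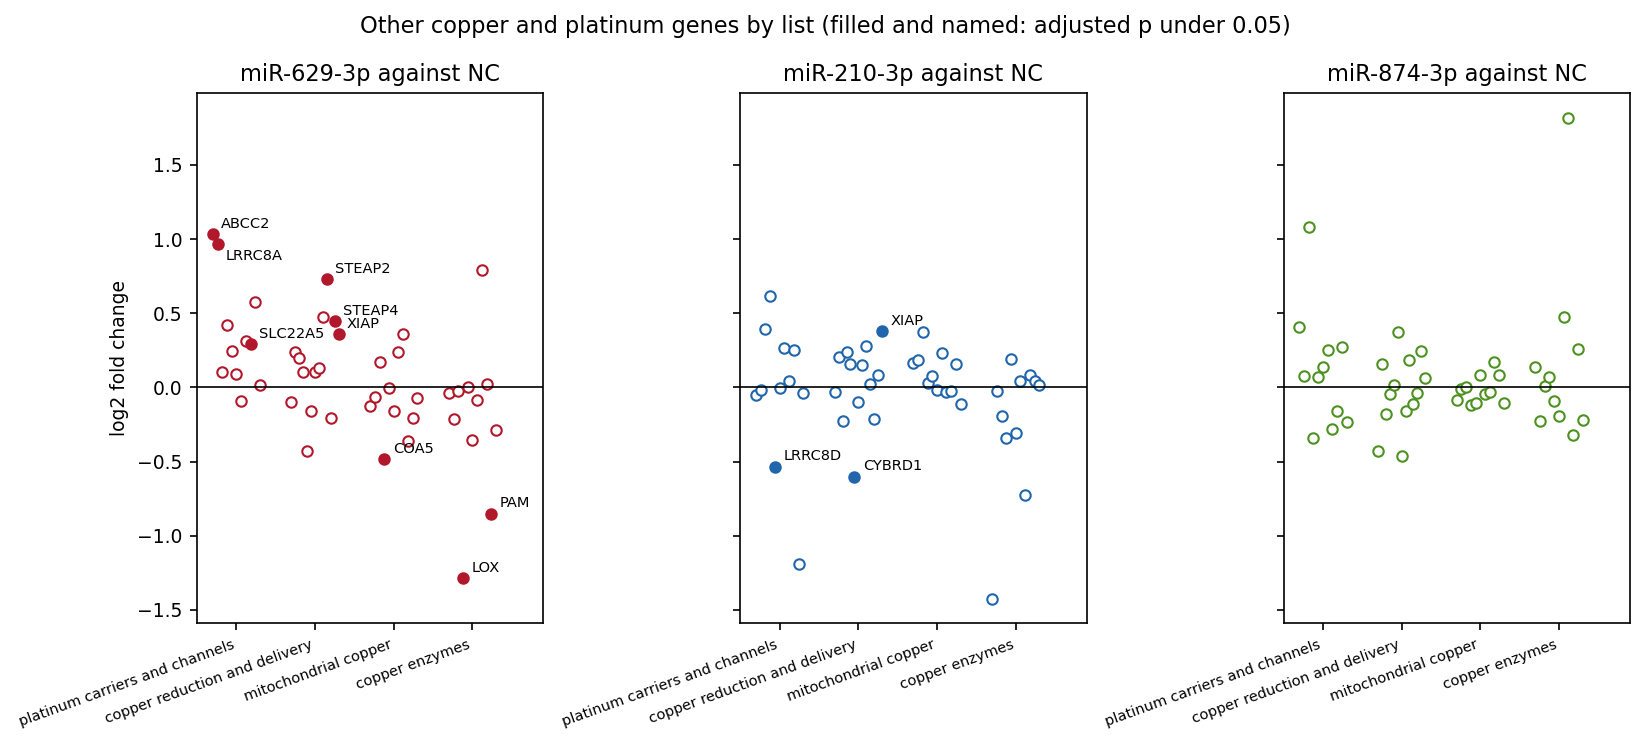
Log2 fold change against NC (y axis) of the 46 tested genes in 4 lists of copper and platinum genes (x axis), with 1 panel for each miRNA. Filled, named points passed an adjusted p of 0.05 in limma: 9 for miR-629-3p, 3 for miR-210-3p and none for miR-874-3p.

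Among 13 tested genes of copper reduction and delivery, 3 rose with miR-629-3p and none fell, beside the same 9.28% and 7.47% of all genes, with a median difference of 0.13. The metalloreductase STEAP2, of a family that reduces copper and iron before import, was at 1.29 and 1.19 with miR-629-3p and between 0.26 and 0.55 on the other 6 arrays. It was 1.66-fold higher than in NC (log2 0.73, SE 0.11, limma adjusted p = 0.0139) by the brighter of 2 probes. The dimmer probe gave -0.03 (SE 0.39). The call was lost without any 1 of the miR-629-3p or NC arrays (limma adjusted p from 0.053 to 0.0878). Its relative STEAP4 was 1.37-fold higher (limma adjusted p = 0.0445). XIAP, an apoptosis inhibitor that also binds CCS and COMMD1, was 1.28-fold higher with miR-629-3p (limma adjusted p = 0.0231) and 1.30-fold higher with miR-210-3p (limma adjusted p = 0.0378). The ferric reductase CYBRD1 was at 1.05 and 0.85 with miR-210-3p and 1.64 and 1.46 in NC, and fell by 0.60 on the log2 scale (SE 0.11, limma adjusted p = 0.0413), a call lost without any 1 of the miR-629-3p, miR-210-3p or NC arrays (limma adjusted p from 0.0922 to 0.18). Its second probe was at -0.49 and not called (limma adjusted p = 0.0571 among all kept probes), and with miR-874-3p the probes differed in sign, at 0.37 and -0.29.

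Of the copper-using enzymes, 11 of 16 were tested, and 2 fell with miR-629-3p while none rose, where 7.47% of all genes were called lower and 9.28% higher, with a median difference of -0.09. PAM, which amidates secreted peptides, was at 3.55 and 3.49 with miR-629-3p and 4.35 and 4.39 in NC, and fell by 0.85 on the log2 scale (SE 0.08, limma adjusted p = 0.00594), also by its second probe (-0.66, SE 0.10). It remained called without any 1 of the 8 arrays. LOX, the lysyl oxidase that crosslinks collagen, was at -2.40 and -2.19 with miR-629-3p and -1.24 and -0.78 in NC, and fell by 1.28 on the log2 scale (SE 0.27, limma adjusted p = 0.0324). That call was lost without any 1 of the miR-629-3p, miR-210-3p or NC arrays (limma adjusted p from 0.0568 to 0.152), and with normexp background correction the difference was -0.41. Of 11 mitochondrial copper genes, COA5, a cytochrome oxidase assembly factor, fell by 0.48 with miR-629-3p on the log2 scale (SE 0.07, limma adjusted p = 0.0149), and none rose. Its other probe gave 0.10 (SE 0.10), and the call was lost without any 1 of the miR-629-3p or NC arrays (limma adjusted p from 0.0547 to 0.0907). The calls of SLC22A5, STEAP4, LRRC8D and XIAP were each lost without any 1 of the miR-210-3p, miR-629-3p or NC arrays (limma adjusted p from 0.0537 to 0.194). With normexp background correction STEAP4 was at 0.12 (limma adjusted p = 0.21). SOD1, the client of CCS, and the COX17 and SCO chaperones of cytochrome oxidase were not called in any comparison with NC. With miR-629-3p SOD1 differed from NC by -0.28 (limma adjusted p = 0.052) and COX17 by 0.24 (limma adjusted p = 0.072). SCO1 differed by -0.36 (limma adjusted p = 0.119) and SCO2 by -0.21 (limma adjusted p = 0.163).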

How the data were processed

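The authors deposited one scanner text file per array, made with Agilent Feature Extraction 11.5.1.1 per the labels, which holds the processed signal as intensity, background-subtracted by the scanner software. They also deposited a table of log2 values per probe, which matched log2 processed signal minus an array constant for all probes within 0.05 and was used as an alternative. Here, log2 of the deposited intensity was reduced by each array's 75th percentile over gene probes, outlier spots were dropped and repeated spots averaged. Probes were kept if all 8 arrays gave a value and if, in some group, both arrays read it well above background, and the brightest stood for its gene. The 21283 genes were fitted together in limma 3.58.1 (R 4.3.3), with 4 residual degrees of freedom, and p-values adjusted by Benjamini-Hochberg over all of them. The percentile was first taken over spots and, after values of the members had been seen, over probes, as listed among the planned settings. Statistics were tested on simulated data. The members and gene lists were chosen with earlier results of these data known. Pathway genes are named where called with at least 1.5-fold change, up to 4 per list by adjusted p, with other called genes added. Probe coordinates are hg19 from the scanner files. With 2 arrays per group, their number limits the precision.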

Additional observations from a re-analysis of the deposited data

How the results depend on the processing

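The replicate numbers did not pair the arrays: same-numbered arrays of 2 groups deviated with a correlation between -0.11 and 0.03. With the number as a replicate block, 1 of the 6 genes was called for miR-629-3p against NC in place of 2, 0 by the F test in place of 1, 5 of the pathway genes in place of 9 for miR-629-3p, 0 in place of 3 for miR-210-3p, and 0 between miR-874-3p and either of the other miRNAs. By the methods' t-test and ANOVA with Benjamini-Hochberg adjustment every one of these counts was 0, except the 1 between miR-629-3p and miR-210-3p.

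Without each array in turn, the calls among the 6 genes ran from 0 to 2 for miR-629-3p, 0 to 1 by the F test, 0 to 2 between miR-629-3p and miR-210-3p, 0 to 2 between miR-629-3p and miR-874-3p and 0 between miR-874-3p and miR-210-3p, and pathway calls from 3 to 13 for miR-629-3p, 0 to 6 for miR-210-3p and 0 to 1 for miR-874-3p. In 4 cases a difference from NC changed sign: ATP7B with miR-874-3p ran from -0.025 (without miR-874-3p replicate 2) to 0.198, CCS with miR-629-3p from -0.254 to 0.0078 (without miR-629-3p replicate 1), SLC31A2 with miR-210-3p from -0.019 (without NC replicate 2) to 0.178, and SLC31A2 with miR-874-3p from -0.12 (without miR-874-3p replicate 2, with -0.032 without NC replicate 2) to 0.254, none of them called.

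With miR-210-3p against NC, 2 of the 6 genes were called after normexp background correction, 1 among genes detected on all 8 arrays and 3 with a trended prior. The F test called 3 with normexp, quantile normalization, the deposited table, outlier spots kept or a trended prior. It called 4 among genes detected on all 8 arrays. With a floor, without the detection filter or with the percentile over spots it called 2. The percentile over spots was the setting used first. The change to probes, made after values of the members had been seen, lowered the F test calls to 1. Between miR-629-3p and miR-210-3p 2 were called with median centring, a floor, detection on all 8 arrays or a trended prior, and 0 without the filter. Between miR-629-3p and miR-874-3p 0 were called with the 2 groups alone. Between miR-874-3p and miR-210-3p 0 were called with quantile normalization, median centring, no filter, the 2 groups alone, the percentile over spots or every kept probe tested. Pathway calls for miR-210-3p were 5 with normexp, 7 with a trended prior and 0 without the filter or with the 2 groups alone. The cause of these shifts was not tested. The differences of SLC31A1 and SLC31A2 with miR-629-3p against NC kept their direction in all 21 alternatives, and their calls were lost in 7 and 4. ABCC2 was not detected on all 8 arrays and has no value under that filter. All arrays shared 1 slide, so a slide block was not run. Signal over background limits the 3 carriers that were not tested.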
